A study of Homo sapiens with 4 samples.

Results

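MALAT1 and NEAT1, 2 well known long non-coding RNAs (lncRNAs) of the nucleus, were followed in RNA recovered with an antibody against SF3B6 and in input RNA. They were taken by their gene symbols, each of which has 1 row among the 18276 genes of the deposited tables, and 3084 other genes there are typed as lncRNA. The 4 libraries, from the human triple-negative breast cancer line MDA-MB-231, were 2 of RNA recovered with the SF3B6 antibody (IP) and 2 of input RNA; the design text describes each pair as biological replicates. Per the labels' protocols, all cells were irradiated with a single dose of 400 mJ/cm2, and after lysis DNA was digested and RNA was trimmed with micrococcal nuclease. The labels give no knockdown or drug for these libraries. All 4 titles name MDA-MB-231, although the cell line field ends in another digit in 3 of the 4 samples. An IgG antibody is named in the protocols and was not analysed here, so that RNA retained by the beads was not separated from RNA bound to SF3B6.

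SF3B6 belongs to SF3b, a protein complex within the U2 small nuclear ribonucleoprotein, and lies close to the branch point of an intron during splicing. MALAT1 gathers at nuclear speckles, the bodies where splicing factors are stored, and its transcript is largely unspliced. Its 3′ end is not made by ordinary polyadenylation: RNase P cuts off a small tRNA-like RNA, and the new end folds into a triple helix that protects it. NEAT1 is the scaffold of paraspeckles, bodies that lie beside speckles and hold RNA-binding proteins such as SFPQ and NONO. It is made as a short polyadenylated form and a long form from the same start, and the long form ends like MALAT1. Both RNAs thus lie close to splicing factors in the nucleus while having little splicing of their own. The comparison of IP with input addresses which transcripts were recovered with SF3B6.

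Both genes lie on the plus side of the same stretch of chromosome 11 (GRCh38.p14, RefSeq). NEAT1 (ENSG00000245532.9) spans chr11:65422798-65445540, which is 22743 bases, and MALAT1 (ENSG00000251562.8) spans chr11:65497738-65506516, which is 8779 bases. A gap of 52197 bases lies between them. RefSeq gives 2 transcripts for NEAT1 and 3 for MALAT1, and promoter records for 2 starts of MALAT1, 1307 bases apart. The first 50 bases downstream of each start are shown because a single row of the tables pools the RNAs that begin at either, on the plus strand at chr11:65497738-65497787 and chr11:65499045-65499094.
MALAT1 start 1: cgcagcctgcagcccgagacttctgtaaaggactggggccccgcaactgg
MALAT1 start 2: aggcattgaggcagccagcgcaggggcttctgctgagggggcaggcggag
These stretches hold 66% and 70% G or C.

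The gene lengths behind the deposited FPKM values show which forms were pooled. FPKM sets a count against the length of its gene and the size of its library. The lengths implied by both tables were 8829 bases for MALAT1 in SF3B6 IP 1 and 22766 bases for NEAT1 in the same library. The other 3 libraries gave 8828 to 8829 bases for MALAT1 and 22765 to 22769 bases for NEAT1. The length used for NEAT1 covers the whole long form, and the short form, which shares its 5′ part, cannot be told apart from it. MASCRNA, the tRNA-like product of MALAT1 (58 bases), lies wholly inside the MALAT1 span, and MIR612, a microRNA (100 bases), inside the NEAT1 span. TALAM1, an RNA antisense to MALAT1, overlaps it by 7205 bases. MASCRNA, MIR612 and TALAM1 were not analysed here, and without a stated strand setting, reads of MALAT1 and TALAM1 cannot be told apart.

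MALAT1 and NEAT1 were among the most counted genes in all 4 libraries, and neither passed the test between IP and input. Counts in genes came to 55492 and 30431 in SF3B6 IP 1 and 2, against 317190 and 519836 in input 1 and 2. Genes with at least 1 count numbered 9042 and 6334 in the IP libraries, against 14509 and 15990 in the inputs. Of the 8 genes fixed as high in this line, such as VIM and AXL, 8 were counted, with sums of 199 and 95 in IP and 1635 and 2949 in input. AXL alone gave 871 and 1537 of the input counts. Of 6 fixed as absent or low, 4 were listed, with sums of 9 and 4 in IP and 83 and 169 in input, most of them from ERBB2. ERBB2 had 76 and 147 counts in input, more than CD44, MSN, CAV1, S100A4 and LGALS1 of the high list. In input FPKM, ERBB2 stood above CD44 alone of that list. GATA3, also fixed as absent or low, had 4 and 15 counts in input. CDH1 and EPCAM, epithelial adhesion genes, had at most 4 counts in any library, and of 5 blood cell markers HBA1 had 1 count in SF3B6 IP 1. With 2 libraries against 2, edgeR p-values set a difference against a spread that each gene largely borrows from the fit across all tested genes.

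MALAT1 had 228 and 100 counts in SF3B6 IP 1 and 2, against 1364 and 2271 counts in input 1 and 2. These were 0.411% (Wilson 95% interval 0.361 to 0.468%) and 0.329% (0.270 to 0.399%) of gene counts in the IP libraries. In the inputs they were 0.430% (0.408 to 0.453%) and 0.437% (0.419 to 0.455%). The share was lowest in SF3B6 IP 2, whose interval lies below those of both inputs, while the interval of SF3B6 IP 1 overlaps both. As counts per 1e+06 (CPM) after scaling by TMM, which sets the bulk of tested genes level between libraries, MALAT1 stood at 5020 and 4357 CPM in IP against 4799 and 4629 CPM in input. SF3B6 IP 1 was the highest of the 4 on this scale and SF3B6 IP 2 the lowest, so the groups overlapped.

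NEAT1 had 187 and 106 counts in SF3B6 IP 1 and 2, against 1193 and 2067 counts in input 1 and 2. Its share was 0.337% (0.292 to 0.389%) and 0.348% (0.288 to 0.421%) of IP counts, against 0.376% (0.355 to 0.398%) and 0.398% (0.381 to 0.415%) of input counts. Both IP shares lay below both input shares, but the interval of each IP library overlapped those of both inputs. After TMM, NEAT1 stood at 4117 and 4619 CPM in IP against 4197 and 4213 CPM in input. The IP libraries fell on either side of the inputs, so here too the groups overlapped.

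**Figure D1:**
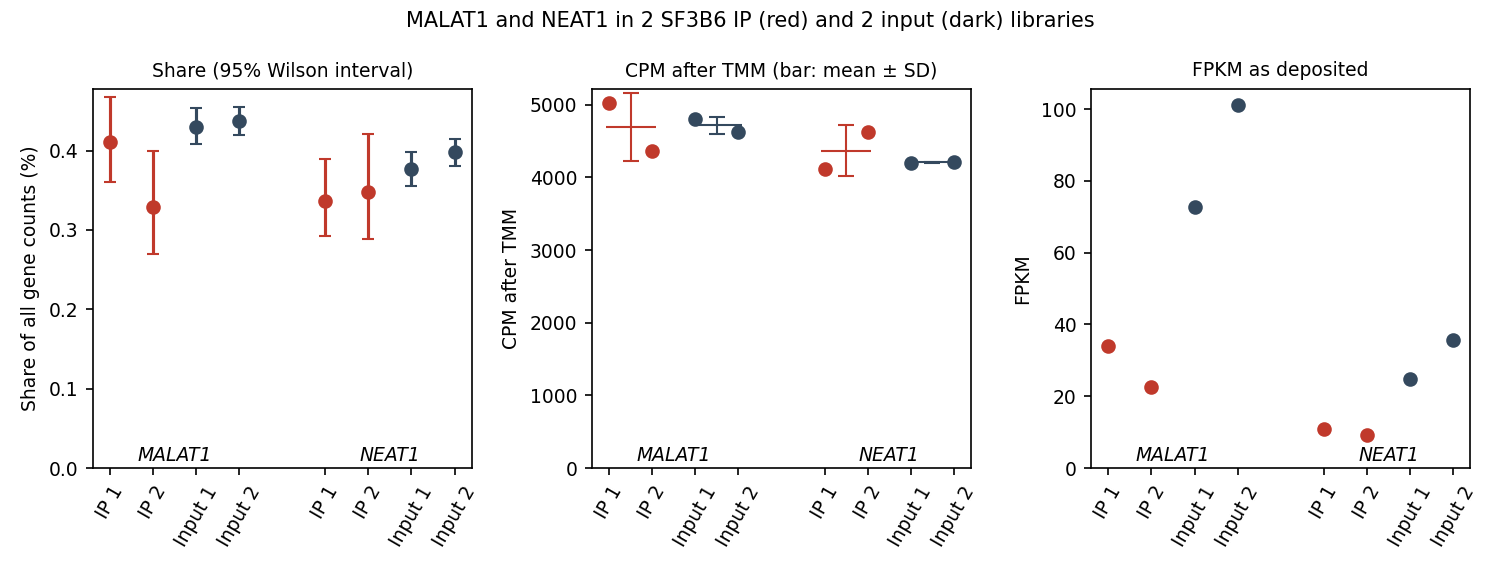
MALAT1 and NEAT1 in each library, with SF3B6 IP in red and input in dark blue: share of gene counts in percent with 95% Wilson intervals (left), CPM after TMM with group mean and SD (middle), and deposited FPKM (right). The groups overlap in CPM, whereas in share and in FPKM both IP libraries lie below both inputs, for MALAT1 at 34.1 and 22.6 FPKM in IP against 72.8 and 101.0 FPKM in input.

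Neither RNA passed edgeR's quasi-likelihood test, which was fitted across 3668 genes that passed the expression filter. MALAT1 averaged 4689 ± 469 CPM in IP and 4714 ± 120 CPM in input (SD, n = 2 libraries each). Its log2 fold change was 0.0027 ± 0.20 SE (edgeR adjusted p = 0.996), with a 95% interval from -0.41 to 0.42, or a ratio between 0.752 and 1.34. NEAT1 averaged 4368 ± 354 CPM in IP and 4205 ± 11.3 CPM in input (SD, n = 2 libraries each). Its log2 fold change was 0.046 ± 0.20 SE (edgeR adjusted p = 0.960), with a 95% interval from -0.36 to 0.45, or a ratio between 0.778 and 1.37. Of the 2 genes, 0 passed, 0 had an unadjusted p under 0.05, and 0 passed in DESeq2. Among all tested genes 4.06% passed, 2.7% higher and 1.36% lower in IP. IP and input libraries did not overlap in CPM for 49.4% of tested genes, and they overlapped for both MALAT1 and NEAT1.

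Both estimates were narrow against most tested genes, but not against genes counted as well. Their SE of 0.20 compares with a median SE of 0.58 over all tested genes, and of 0.21 over the 57 with at least 100 IP counts. With a replicate block the SE was 0.31 for MALAT1 and 0.30 for NEAT1. On the TMM scale a 2-fold difference in either direction thus lies outside both 95% intervals. With the library totals behind FPKM as the scale, the intervals ran from -2.37 to -0.85 for MALAT1 and from -2.35 to -0.81 for NEAT1. A difference within the intervals of the TMM fit was not detectable with 2 libraries each. For a sense of the scale, RNU12, the U12 RNA that takes the place of U2 in the minor spliceosome, was picked after its value was seen. It had a log2 fold change of 4.36 ± 0.33 SE in the TMM fit, with an interval from 3.68 to 5.05 (edgeR adjusted p = 4.48e-12). RNU12 had fewer than 100 IP counts, and its values under other settings are not reported here. Its interval lies wholly above those of MALAT1 and NEAT1. Of all tested genes, 53.6% had a smaller log2 fold change than MALAT1 and 56.1% a smaller one than NEAT1, which puts both near the middle.

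**Figure D2:**
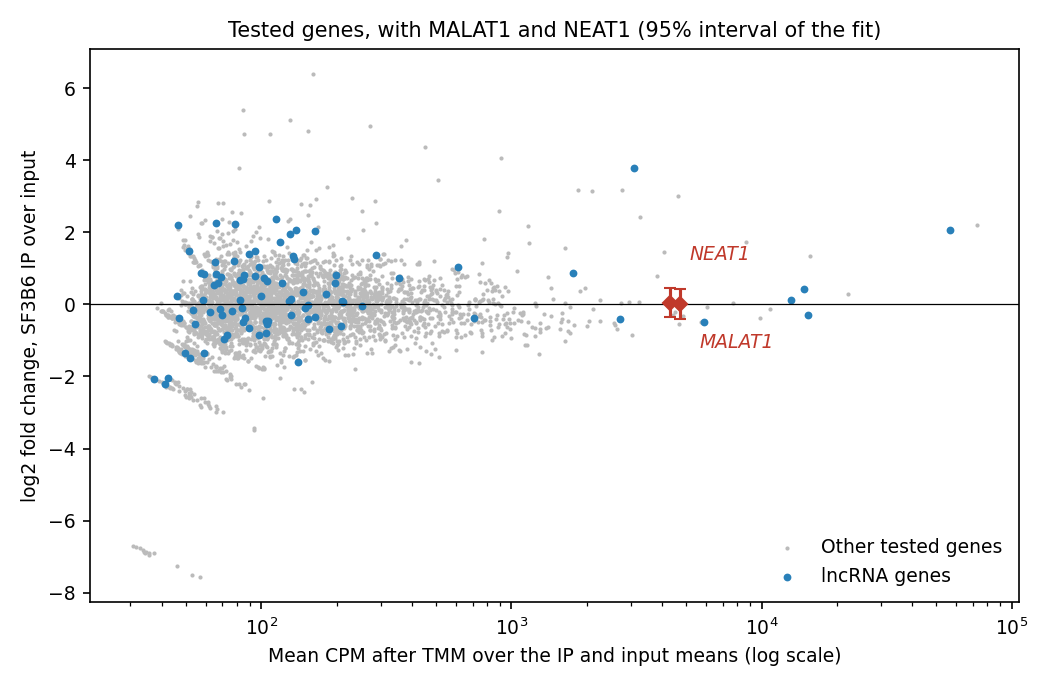
Each point is a tested gene, by mean CPM after TMM (log axis) and log2 fold change of SF3B6 IP over input; blue points are lncRNA genes, and MALAT1 and NEAT1 are red diamonds with the 95% interval of the fit. Both sit at the well counted end of the plot and at the zero line, at 0.0027 and 0.046.

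The sign of either difference depended on how libraries were scaled. IP and input share no absolute scale, so that a lower share can mean less of an RNA recovered or more of other RNAs. In share of gene counts MALAT1 averaged 0.370 ± 0.058% in IP and 0.433 ± 0.0048% in input, and NEAT1 0.343 ± 0.0080% in IP and 0.387 ± 0.015% in input (SD, n = 2 libraries each). For both RNAs the 2 IP shares lay below the 2 input shares, as they did for 38.4% of tested genes. The exact permutation test, two-sided, gave p = 0.333 for each, the smallest that 2 against 2 libraries allow. With library totals as the scale the log2 fold changes were -0.21 for MALAT1 (edgeR adjusted p = 0.660) and -0.18 for NEAT1 (0.719). With the totals behind the FPKM table they were -1.61 (adjusted p = 0.000782) and -1.58 (0.00106), and both then counted as lower. On that scale the median of all tested genes was -1.65 and 2098 of 3668 genes were lower. Genes took 7.32% and 6.07% of that total in SF3B6 IP 1 and 2, against 15.0% and 20.4% in input 1 and 2, so this scale lowers every gene in IP against its level by gene counts.

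Relative to the other tested genes, MALAT1 and NEAT1 stayed near the middle when counts were rescaled, but not under every setting. A change of scaling alone shifts all genes nearly alike, so it could hardly move this place and is no test of it. Over 5 scalings other than TMM, the log2 fold change minus the median over tested genes was 0.037 to 0.073 for MALAT1 and 0.067 to 0.12 for NEAT1. The share of tested genes with a smaller log2 fold change was 52.2 to 54.2% for MALAT1 and 53.8 to 57.0% for NEAT1. A minimum of 50 counts put them at 63.7% and 66.7%. By limma on log2(FPKM + 1) with low genes removed they stood lower, at 17.4% for MALAT1 and 22.6% for NEAT1. That is 0.53 and 0.41 below the median, and with no filter they stood at 5.12% and 6.65%. On log2(FPKM + 0.1) with low genes removed they stood at 58.2% and 61.4%, above the median by 0.19 and 0.26. Their place by limma thus turned with the value added to FPKM. Of 16 other settings, 14 left MALAT1 and 14 left NEAT1 short of the threshold. The 2 in which they passed, both as lower, were the totals behind the FPKM table and limma on log2(FPKM + 1) with low genes removed.

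**Figure D3:**
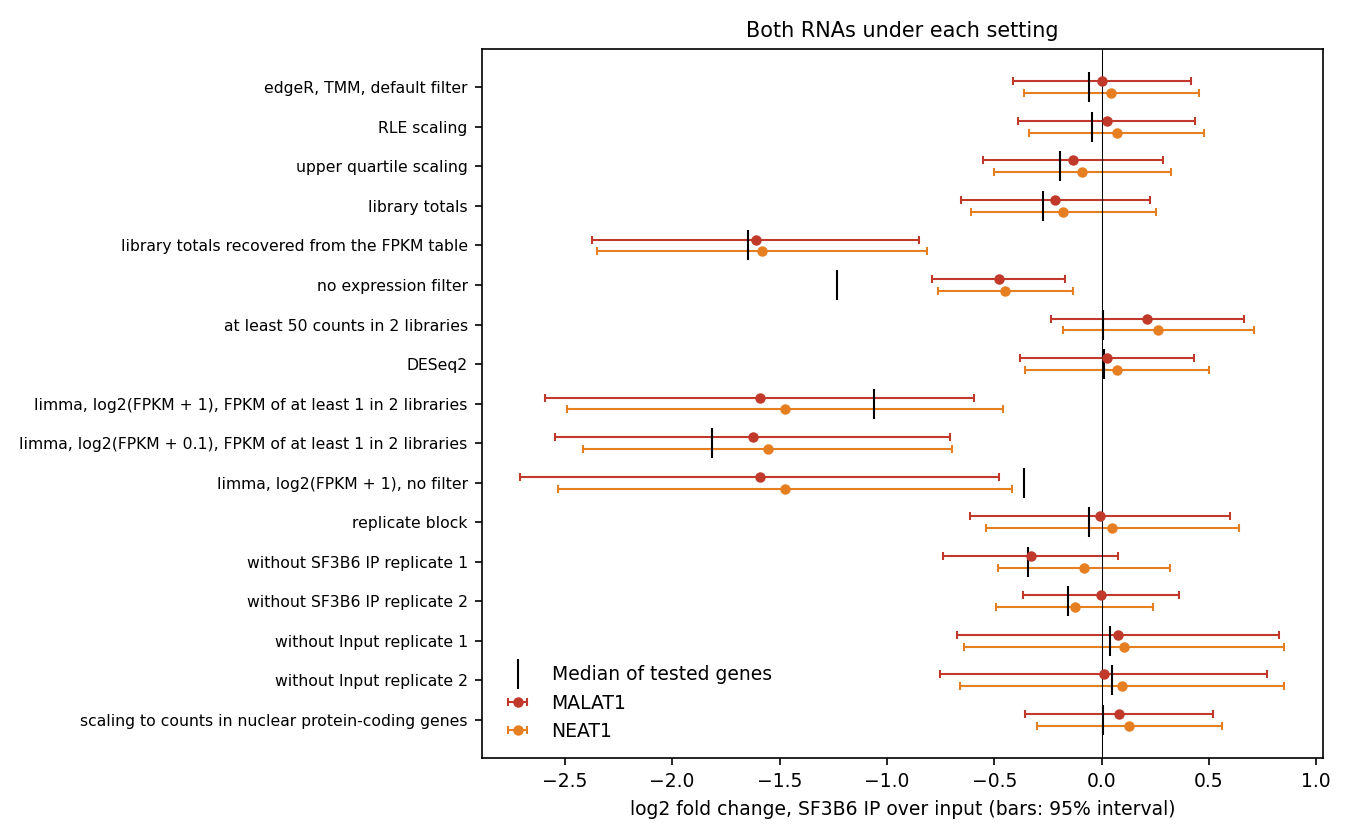
The log2 fold change of SF3B6 IP over input for MALAT1 (red) and NEAT1 (orange) under each setting, with 95% intervals (for DESeq2 from its SE); the black tick is the median of the genes tested in that setting. Points move with the tick as the scaling changes, to -1.61 and -1.58 where the median is -1.65. A change of scaling alone shifts all genes nearly alike.

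Per length as used for FPKM, MALAT1 stood above NEAT1 in every library. Deposited FPKM values of MALAT1 were 34.1 and 22.6 in SF3B6 IP 1 and 2, against 72.8 and 101.0 in input 1 and 2. Those of NEAT1 were 10.8 and 9.29 in IP, against 24.7 and 35.6 in input. MALAT1 thus stood 3.14-fold and 2.43-fold above NEAT1 per length in the IP libraries, and 2.95-fold and 2.83-fold in the inputs. Most of this gap is the length used for NEAT1, which is 2.58-fold that of MALAT1 and covers the long form. Reads of the short NEAT1 form are set against that length too, so which RNA has more molecules was not tested. Both IP libraries lay below both inputs in FPKM for each RNA, as they did for 88.8% of tested genes.

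The balance between the 2 RNAs needs no scaling between libraries, and the groups overlapped. The ratio of MALAT1 to NEAT1 counts was 1.22 (exact 95% interval 1.00 to 1.49) in SF3B6 IP 1 and 0.943 (0.711 to 1.25) in SF3B6 IP 2. It was 1.14 (1.06 to 1.24) in input 1 and 1.10 (1.03 to 1.17) in input 2. The IP libraries lie on either side of the inputs, and the interval of each IP library covers both input values. The mean log2 ratio was 0.10 ± 0.26 in IP and 0.16 ± 0.041 in input (SD, n = 2 libraries each), a difference of -0.064 (exact permutation p = 1, two-sided). Without SF3B6 IP 1 the difference was -0.25 and without SF3B6 IP 2 it was 0.12.

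By rank the pair kept similar places in each library. MALAT1 was the 15th and 23rd most counted gene in SF3B6 IP 1 and 2, against the 16th and 18th in input 1 and 2. NEAT1 was the 21st in both IP libraries, against the 21st and the 20th in the inputs. The type lncRNA also takes in small structured RNAs, such as RPPH1 and RMRP. Among genes of that type by count, MALAT1 ranked 5 and 8 in IP against 6 and 6 in input, and NEAT1 ranked 7 in all 4 libraries. Per length they stood lower, at ranks 90 and 93 for MALAT1 in IP against 65 and 57 in input, and at ranks 225 and 207 for NEAT1 in IP against 177 and 173 in input.

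The 2 RNAs took a smaller part of all lncRNA counts in IP. Together they held 5.87% and 4.01% of lncRNA counts in SF3B6 IP 1 and 2, against 7.33% and 9.65% in input 1 and 2. In the same libraries lncRNA genes held 12.7% and 16.9% of all gene counts in IP, against 10.996% and 8.65% in input. The gene RP11-596C23.6, typed as lncRNA, alone had 2839 of 7075 and 2767 of 5134 lncRNA counts in IP. In input it had 7666 of 34879 and 8044 of 44970. The smaller part of the pair is thus set against a total in which this gene weighs more in IP. With that gene's counts left out, the pair's part in SF3B6 IP 1 exceeds that in input 1, so the groups overlap. Of 88 genes typed as lncRNA and tested, 9 were higher and 0 lower in IP by edgeR (18 and 2 at unadjusted p under 0.05; 2 and 0 in DESeq2, of 45 with an adjusted p), against 2.7% higher and 1.36% lower over all tested genes. RP11-596C23.6 and RNU11, the U11 RNA of the minor spliceosome, are among the 9, so the type is not one of long RNAs alone. The calls turned with the scale: 5 were higher and 0 lower with library totals, 1 higher and 42 lower with the totals behind FPKM, and 1 higher and 23 lower by limma on log2(FPKM + 1), of 72. MALAT1 and NEAT1 ranked 51 and 50 by log2 fold change among the 88, whose median was 0.13, against -0.060 for all tested genes.

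RNAs of like abundance in input gave a range of outcomes around them. MALAT1 was the 18th and NEAT1 the 20th gene by mean input share, and for each the 10 nearest genes in that order were taken. Around each RNA their median log2 fold change was -0.26, and 1 was higher and 1 lower. The higher, the same gene for both, was RN7SL3, a copy of the signal recognition particle RNA, with 543 and 339 counts in IP against 1347 and 1637 in input (1.72 ± 0.23 SE, edgeR adjusted p = 2.09e-06); reads may be split between it and near-identical copies. RN7SL3 did not pass without input 2 (adjusted p = 0.0592), and stood at 0.12 with the totals behind FPKM (0.745) and by limma (0.467 to 0.735). AGRN, the messenger of the matrix protein agrin and next in rank after MALAT1, had 225 and 99 counts in IP against 1262 and 2164 in input, almost the counts of MALAT1 itself (0.077 ± 0.20 SE, edgeR adjusted p = 0.922).

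Genes whose level profile was most like each RNA were all protein-coding, as were 3483 of the 3668 tested genes. Likeness was the Euclidean distance between log2 CPM values over the 4 libraries, each gene centred on its own mean, among tested genes with at least 100 counts in all. For MALAT1 the nearest were ALS2CL (distance 0.074), GPI (0.076), ADAM8 (0.079), AGRN (0.080) and COL6A1 (0.082). For NEAT1 they were TMEM259 (0.071), ELFN2 (0.072), HMG20B (0.072), ERO1A (0.074) and SLC25A37 (0.078). The distance between MALAT1 and NEAT1 was 0.272, and 122 other genes were nearer to NEAT1 than MALAT1 was. The log2 fold changes of these 10 genes lay between -0.048 and 0.097, close to 0 because the genes were chosen by this profile. With 4 libraries of unequal depth the distances carry no test.

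Neighbouring genes at the locus were also without a call with TMM. Within 250 kb of either gene, RefSeq places 40 other genes, of which 23 are listed in the table and 13 were tested. Of the 13, 0 passed in edgeR (1 at unadjusted p under 0.05, as higher; 0 of 8 in DESeq2), against 4.06% of all tested genes. Their median log2 fold change was -0.061, against -0.060 for all tested genes. With the totals behind FPKM 6 of 13 were lower, against 57.2% of all tested genes. By limma on log2(FPKM + 1) with low genes removed 5 of 13 were lower, against 40.5%. FRMD8, which lies beyond the start of NEAT1, had 7 and 5 counts in IP against 46 and 65 in input (0.29 ± 0.47 SE, edgeR adjusted p = 0.854). EHBP1L1, the tested locus gene with the most IP counts, had 26 and 15 counts in IP against 170 and 320 in input (-0.067 ± 0.24 SE, edgeR adjusted p = 0.947). LINC02736, a lncRNA gene in the gap between the 2 RNAs, had 0 counts in both IP libraries against 0 and 1 in the inputs, too few to compare. All 23 neighbours together held 143 and 59 counts in IP against 792 and 1522 in input, fewer than MALAT1 alone in each library.

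Messengers of paraspeckle proteins, the partners of NEAT1, had far fewer counts than NEAT1. Of 24 symbols on the list 13 were tested, with a median log2 fold change of 0.21 against -0.060 for all tested genes, and 1 was higher and 0 lower (edgeR; 2 and 1 at unadjusted p under 0.05). The higher was AKAP8L, which encodes a nuclear anchoring protein, with 25 and 6 counts in IP against 56 and 89 in input (1.27 ± 0.33 SE, edgeR adjusted p = 0.0189). In DESeq2 0 of 11 passed. Over all tested genes 4.06% passed in edgeR. With the totals behind FPKM 6 of 13 on the list were lower, against 57.2% of all tested genes. By limma on log2(FPKM + 1) with low genes removed 7 of 16 were lower, against 40.5%. AKAP8L passed in 4 of 16 alternatives. It did not with upper quartile scaling (adjusted p = 0.0539), library totals (0.0716) or no filter (0.477), and its sign turned with the totals behind FPKM and by limma. It was at 0.26 without SF3B6 IP 1 (adjusted p = 0.941), and did not pass without input 1 (0.114), without input 2 (0.250) or with a replicate block (0.0568). SMARCA4, a chromatin remodeller, had 7 and 8 counts in IP against 101 and 167 in input (-0.65 ± 0.36 SE, edgeR adjusted p = 0.374). HNRNPUL1, an RNA-binding protein, had 16 and 8 counts in IP against 77 and 159 in input (0.21 ± 0.32 SE, edgeR adjusted p = 0.841). DAZAP1, also RNA-binding, had 24 and 10 counts in IP against 90 and 147 in input (0.70 ± 0.28 SE, adjusted p = 0.182). The core proteins SFPQ and NONO had log2 fold changes of -0.71 ± 0.50 (adjusted p = 0.518) and 0.33 ± 0.52 (0.850) from 8 and 10 IP counts.

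Messengers of speckle proteins, which share the body where MALAT1 gathers, had no call with TMM. Of 22 on the list 15 were tested, with a median log2 fold change of -0.082. In edgeR 0 passed (0 higher and 1 lower at unadjusted p under 0.05; 0 of 6 in DESeq2), against 4.06% of all tested genes. With the totals behind FPKM 9 of 15 were lower, against 57.2% of all tested genes. By limma on log2(FPKM + 1) with low genes removed 7 of 12 were lower, against 40.5%. SRRM2, whose protein is part of the core of speckles, was the best counted, with 55 and 16 counts in IP against 321 and 633 in input (-0.25 ± 0.22 SE, edgeR adjusted p = 0.642). SON, the other core protein, had 17 and 14 counts in IP against 148 and 244 in input (-0.16 ± 0.27 SE, edgeR adjusted p = 0.865). DDX39B, a helicase of splicing and export, had 14 and 6 counts in IP against 89 and 193 in input (-0.31 ± 0.33 SE, edgeR adjusted p = 0.734). ACIN1, of the exon junction machinery, had 12 and 8 counts in IP against 79 and 129 in input (0.12 ± 0.34 SE, edgeR adjusted p = 0.925). SRSF6, a splicing regulator, had 1 and 0 counts in IP against 35 and 51 in input (edgeR adjusted p = 0.126).

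Factors that make or turn over the ends of the 2 RNAs included 1 call. Of 18 symbols on the list, which give 1 gene by an older symbol as well, 17 are listed and 4 were tested, all with log2 fold changes above 0 (median 0.67), and 1 was higher (edgeR; 2 at unadjusted p under 0.05; 0 of 4 in DESeq2). It was CPSF1, the large subunit of the cleavage and polyadenylation factor, with 40 and 14 counts in IP against 135 and 199 in input (0.86 ± 0.23 SE, edgeR adjusted p = 0.0263). CPSF1 passed in 4 of 16 alternatives. It did not with upper quartile scaling (adjusted p = 0.0915), library totals (0.136) or no filter (0.876), and its sign turned with the totals behind FPKM and by limma. It was at 0.27 without SF3B6 IP 1 (adjusted p = 0.879), and did not pass without input 1 (0.111), without input 2 (0.404) or with a replicate block (0.118). RPPH1, the RNA of RNase P, which cuts the 3′ ends of MALAT1 and of the long NEAT1 form, had 623 and 468 counts in IP against 4102 and 5300 in input (0.43 ± 0.25 SE, edgeR adjusted p = 0.411). ELAC2, the enzyme that trims the tRNA-like product, had 11 and 8 counts in IP against 55 and 67 in input (0.81 ± 0.40 SE, edgeR adjusted p = 0.323). INTS1, of the Integrator complex, had 40 and 11 counts in IP against 150 and 250 in input (0.52 ± 0.24 SE, edgeR adjusted p = 0.267). Over all tested genes 4.06% passed in edgeR. With the totals behind FPKM 2 of 4 on the list were lower, against 57.2% of all tested genes. By limma on log2(FPKM + 1) with low genes removed 2 of 6 were lower, against 40.5%.

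Other lncRNAs known to stay in the nucleus were less well counted than MALAT1 and NEAT1. Of 15 on the list, 10 are listed and 6 were tested, with a median log2 fold change of -0.72. In edgeR 0 passed (0 higher and 1 lower at unadjusted p under 0.05; 0 of 3 in DESeq2), against 4.06% of all tested genes. With the totals behind FPKM 5 of 6 were lower, against 57.2% of all tested genes. By limma on log2(FPKM + 1) with low genes removed 1 of 1 was lower, against 40.5%. KCNQ1OT1, the antisense RNA of the KCNQ1 imprinting domain, had 5 and 0 counts in IP against 67 and 106 in input (-1.61 ± 0.57 SE, edgeR adjusted p = 0.122). TERC, the telomerase RNA, had 10 and 5 counts in IP against 55 and 108 in input (0.063 ± 0.39 SE, edgeR adjusted p = 0.971). PVT1 had 3 and 2 counts in IP against 43 and 55 in input (-0.79 ± 0.64 SE, edgeR adjusted p = 0.597), and FTX 4 and 1 against 31 and 58 (-0.65 ± 0.64 SE, 0.691).

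Of 17 symbols on the list of cytoplasmic lncRNAs, 2 of them older symbols of genes also listed, 14 are listed and 5 were tested, with a median log2 fold change of -0.050. In that list 1 was higher and 0 lower (edgeR; 2 and 0 at unadjusted p under 0.05; 0 of 3 in DESeq2). It was SNHG1, a host gene of small nucleolar RNAs, whose reads may overlap its own, with 29 and 24 counts in IP against 117 and 176 in input (1.03 ± 0.24 SE, edgeR adjusted p = 0.00971). SNHG1 was at 0.65 without SF3B6 IP 2 (adjusted p = 0.283) and lost its call without input 2 (0.169), with library totals (0.0556) and with no filter (0.581). Its sign turned with the totals behind FPKM and by limma. Over all tested genes 4.06% passed in edgeR. With the totals behind FPKM 3 of 5 on the list were lower, against 57.2% of all tested genes. By limma on log2(FPKM + 1) with low genes removed 1 of 4 was lower, against 40.5%. NORAD, an RNA that binds PUMILIO proteins, had 8 and 8 counts in IP against 68 and 120 in input (-0.050 ± 0.38 SE, edgeR adjusted p = 0.975). CYTOR had 4 and 2 counts in IP against 29 and 70 in input (-0.54 ± 0.60 SE, edgeR adjusted p = 0.752), and SNHG12 4 and 0 against 24 and 58 (-0.85 ± 0.74 SE, 0.632). The nuclear and cytoplasmic lists were not tested against each other.

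**Figure D4:**
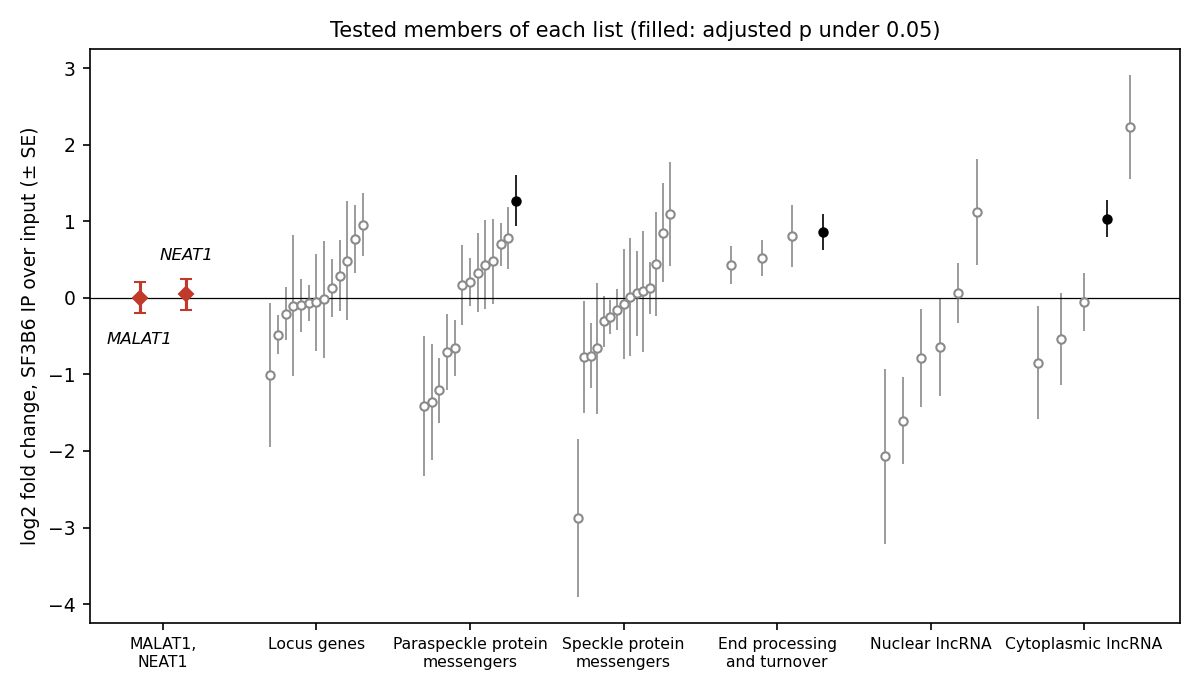
The log2 fold change of SF3B6 IP over input, with its SE, for MALAT1 and NEAT1 (red diamonds) and for the tested members of 6 sets: genes within 250 kb, messengers of paraspeckle and of speckle proteins, factors of end processing and turnover, and other nuclear and cytoplasmic lncRNAs; filled points passed the test. MALAT1 and NEAT1 have the smallest errors (0.20), and 3 genes passed, AKAP8L at 1.27, CPSF1 at 0.86 and SNHG1 at 1.03.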

How the data were processed

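Libraries were 2 of SF3B6 IP and 2 of input RNA. The authors deposited raw read counts per gene and, for the same genes, FPKM values. Per the submitters' processing notes, HISAT2, HOMER and hg38 were used, in roles not stated there; for the counting program, the strand and the rule for multiple matches the sources used here give nothing. The total behind FPKM was recovered from small RNA genes with at least 20 counts and their RefSeq lengths (20, 14, 42 and 47 genes in SF3B6 IP 1 and 2 and input 1 and 2), and came to 0.758, 0.501, 2.12 and 2.55, in units of 1e+06.

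IP was compared with input by edgeR 4.0.16 (R 4.3.3) on the counts, with the default expression filter, TMM factors of 0.968, 0.860, 1.06 and 1.13, group as the single term, and Benjamini-Hochberg adjustment at 0.05 over 3668 genes. CPM after TMM is per 1e+06 counts in tested genes, whereas shares are of all gene counts. Each SE is the log2 fold change over the root of its F statistic. The procedure was tested on simulated counts. Alternatives were other scalings and filters, DESeq2 1.42.0, limma 3.58.1 on log2(FPKM + 1) and log2(FPKM + 0.1) with at least 1 FPKM in 2 libraries, a replicate block and leaving out each library. Wilson and exact intervals cover counting error only, since reads without molecular identifiers are not independent molecules. Replicates differed by more than counting error (chi-square per degree of freedom, 4.33 in IP and 1.72 in input), so each library counts once.

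Members and lists were chosen with earlier results of these data known. Named were MALAT1 and NEAT1, their locus, their nearest genes in input rank and in profile, and from each list up to 4 of the best counted and any that passed. SFPQ, NONO, SRSF6, RNU12 and RP11-596C23.6 were named outside this rule, after their values were seen. Some genes that the rule takes are not reported here.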

Additional observations from a re-analysis of the deposited data

How the results depend on the processing

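MALAT1 and NEAT1 passed the threshold in 2 of 16 alternatives each, and the sign of their near-zero log2 fold changes was not fixed. For MALAT1, at 0.0027 with TMM, it was -0.13 with upper quartile scaling, -0.21 with library totals, -1.61 with the totals behind FPKM, -0.48 with no expression filter and -0.0081 with a replicate block. By limma it was -1.59 on log2(FPKM + 1), filtered or not, and -1.62 on log2(FPKM + 0.1). For NEAT1, at 0.046 with TMM, the same settings gave -0.090, -0.18, -1.58 and -0.45, and by limma -1.48, -1.48 and -1.55, while the replicate block gave 0.05. Without each library in turn MALAT1 ran from -0.33 to 0.077 and NEAT1 from -0.13 to 0.11, and neither passed. A fit without a library takes the spread of the lone library from the other group.

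Counts of genes called moved more. Higher genes numbered 99 with TMM, 60 with library totals, 17 with the totals behind FPKM, 50 with no filter and 37 in DESeq2, and by limma 35 on log2(FPKM + 1), 11 on log2(FPKM + 0.1) and 0 with no filter on FPKM (5443 genes at unadjusted p under 0.05). Lower genes numbered 50 with TMM, and in the same settings 90, 2098, 163, 2, 2134, 644 and 0, with 25 at a minimum of 50 counts and 22 with the replicate block. These are totals over each setting's own tested genes, whose overlap was not counted. Without each library in turn 26 to 94 were higher and 5 to 70 lower. Leave-one-out differences of the log2 ratio of MALAT1 to NEAT1 ran from -0.25 to 0.12. Same-numbered libraries did not deviate together (r = -0.041 over 114 genes), which cannot show whether they were paired. The main fit did not treat them as pairs, and the replicate block was the alternative that did. The scaling to nuclear protein-coding counts was chosen after seeing the data.

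With the totals behind FPKM, AKAP8L was at -0.38, CPSF1 at -0.78 and SNHG1 at -0.54. By limma they were at -0.42, -0.78 and -0.49 on log2(FPKM + 1), filtered or not, and at -0.58, -0.87 and -0.52 on log2(FPKM + 0.1). In these settings RN7SL3 was at 0.12. The causes were not tested. Over both IP libraries MALAT1 had 328 and NEAT1 293 counts, and IP libraries differed by more than counting error. The edgeR intervals thus rest on depth and on a spread between libraries that is largely borrowed across genes. Most list members had under 20 IP counts.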
